A study of Homo sapiens with 12 samples.

Results

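The genes described here make, bind or break down hyaluronan. There were 10 of them (CEMIP, CEMIP2, HAS1, HAS2, HAS3, HYAL1, HYAL2, HYAL3, CD44 and UGDH) among the 40490 Ensembl genes listed for each library. The set was picked around CEMIP because CEMIP was lower with the inhibitor, so the CEMIP values in the inhibitor and inhibitor control libraries are given as a description with no test. The other 9 genes were chosen by function. RNA-seq was carried out on SW1353, an established line from a human chondrosarcoma, a cartilage-forming tumour. There were 4 groups of 3 libraries. Cells received miR-455-3p mimic (a made copy of this microRNA) or its mimic control, or miR-455-3p inhibitor (an oligonucleotide that pairs with the mature form) or its inhibitor control, each at 50 nM, and RNA was taken 48 hours after transfection. All groups were the same cell line, and the amount of the mature microRNA was not analysed here.

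Hyaluronan is a long, unsulphated sugar chain of the extracellular matrix. It is extruded through the plasma membrane by the hyaluronan synthases HAS1, HAS2 and HAS3, which join UDP-glucuronic acid, supplied by UGDH, to UDP-N-acetylglucosamine. In cartilage it anchors aggrecan outside the cell, CD44 is its main cell surface receptor, and CEMIP and the hyaluronidases take part in its breakdown.

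The microRNA is shown with the place in the HAS1 transcript whose letters match part of its seed. Pairing between the 2 was not measured. The mature sequence is from RefSeq (GRCh38.p14, chr9:114209487-114209507, plus strand), with the seed, bases 2 to 8, in capitals. The HAS1 stretch is from the GENCODE annotation of GRCh38 (match at chr19:51713260-51713265, minus strand, 3′ UTR, exon 4 of 4), with the 6 matching bases in capitals.
miR-455-3p: gCAGUCCAugggcauauacac
HAS1 site: actatattgGGACTGggacttctg
The longest annotated 3′ UTR of each of the 10 genes was searched on the transcribed strand for TGGACTGA (8mer), TGGACTG (7mer-m8), GGACTGA (7mer-A1) and GGACTG (6mer), which contain one another and were counted once under the longest form. Among 18816 genes whose 3′ UTR reached 50 bases, 30.9% held one of these forms and 11.97% an 8mer or a 7mer-m8. HAS1 held the 6mer, 162 bases after the stop codon in a 3′ UTR of 315 bases. HAS2 held a 7mer-m8 in exon 4 of 4, with its GGACTG part beginning at base 379 of 1993. The letters were not found in the 3′ UTRs searched of the other 8 genes, which ran from 339 bases in HYAL2 to 3069 in CD44, with 2852 in CEMIP.

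Normalised totals ran from 10974101 to 12016813 per library, and the estimated reads per library from 10516900 to 12466300. Mitochondrially encoded transcripts took 6.09% to 9.93% of a library. Of the listed genes, 16468 passed the filter on low values and were tested. Among cartilage markers, SOX9 (994 to 1415) and COL11A1 (309 to 635) were well detected, whereas COL2A1 was listed at 0 in every library and 5 of 9 markers had a mean under 5. All 5 mesenchymal markers had a mean of at least 20 and none of 5 endothelial markers did. Of 5 blood markers CD68 alone reached that level, with the leukocyte antigen PTPRC between 2.38 and 6.57 and TYROBP at 0. Of the single libraries left out in turn, mimic replicate 3 moved the mimic count most: 797 genes were called without it, against 125 with it.

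Values are normalised counts, which are not corrected for transcript length, so levels were compared between genes only per kilobase of the longest coding transcript. On that scale the medians over 12 libraries were 681 for CD44, 252 for CEMIP, 181 for HYAL2, 107 for UGDH, 70.5 for HYAL3, 56.8 for HYAL1, 46.2 for CEMIP2, 2.90 for HAS3, 1.41 for HAS1 and 0.121 for HAS2. CD44 came first and the 3 synthases last. Those positions held when the median transcript length was used, whereas CEMIP moved from the second place to the fifth, at 255 per kilobase, behind HYAL2, UGDH and CEMIP2. The order in the middle was therefore set by the length used.

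The genes are protein coding, and their positions are given in GRCh38. The surface receptor gene was CD44 (ENSG00000026508, chr11:35138870-35232402, plus strand), and the genes of the CEMIP pair were CEMIP (ENSG00000103888, chr15:80779343-80951776, plus strand) and CEMIP2 (ENSG00000135048, chr9:71683366-71816690, minus strand). The 3 hyaluronidase genes are neighbours on the minus strand of chromosome 3, in the order HYAL3 (ENSG00000186792, chr3:50292831-50299468, minus strand), HYAL1 (ENSG00000114378, chr3:50299889-50312381, minus strand) and HYAL2 (ENSG00000068001, chr3:50317790-50322906, minus strand). The synthases lie apart from one another, at HAS1 (ENSG00000105509, chr19:51713112-51723994, minus strand), HAS2 (ENSG00000170961, chr8:121612116-121641390, minus strand) and HAS3 (ENSG00000103044, chr16:69105564-69118719, plus strand). The precursor enzyme gene was UGDH (ENSG00000109814, chr4:39498755-39528311, minus strand).

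The synthases were barely detected. HAS2, the synthase best known in cartilage, had at most 2 reads in a library and 10 reads over all 12, and was listed at 0 in 6 libraries. Its normalised counts were 0, 2.21 and 0 with the mimic, against 1.05, 0 and 0 in the mimic control, and 2.14, 1.02 and 2.04 with the inhibitor, against 0, 0 and 2.04 in the inhibitor control. HAS1 had 4.12, 1.10 and 6.35 with the mimic, against 1.05, 4.03 and 0 in the mimic control. It had 21.0, 4.07 and 0 with the inhibitor, against 7.83, 1.92 and 0 in the inhibitor control. The groups overlapped for both genes, both were below the filter, and no fold change is given. A difference in the 2 transcripts that hold a seed match was not detectable at this depth.

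**Figure D1:**
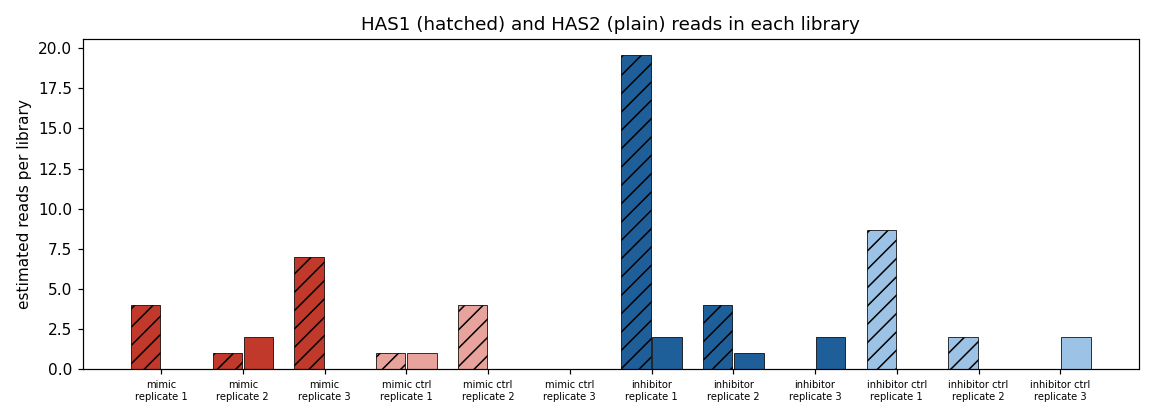
Estimated reads (vertical axis) of HAS1 (hatched bars) and HAS2 (plain bars) in each of the 12 libraries (horizontal axis; ctrl is control). HAS2 never exceeded 2 reads, and the highest HAS1 bar belongs to inhibitor replicate 1.

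HAS3, the third synthase, was low but passed the filter. It had 3.43, 18.2 and 18.8 normalised counts with the mimic, against 20.3, 9.53 and 8.03 in the mimic control, and 9.91, 16.7 and 23.9 with the inhibitor, against 10.998, 13.5 and 4.51 in the inhibitor control. The groups overlapped in both comparisons. The log2 fold change, on the log2(value + 0.5) scale used throughout, was -0.11 ± 0.65 (SE) for the mimic (95% interval -1.51 to 1.30) and 0.81 ± 0.65 for the inhibitor (-0.59 to 2.22), with limma adjusted p = 0.968 and 0.613. The mimic interval took in large changes in either direction, so HAS3 gave little precision. HAS3 shares 365 exon bases (6.90% of its own) with CHTF8 on the opposite strand, whose median was 476 normalised counts. CHTF8 ran from 356 to 514 with the mimic, against 373 to 416 in the mimic control, and from 454 to 666 with the inhibitor, against 498 to 598 in the inhibitor control, and its part in the HAS3 values was not tested.

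UGDH, the dehydrogenase that makes UDP-glucuronic acid, had 423, 359.7 and 369 normalised counts with the mimic, against 269, 308 and 367 in the mimic control. It had 308, 352 and 354 with the inhibitor, against 318, 262 and 337 in the inhibitor control. Both pairs of groups overlapped. The log2 fold change was 0.30 for the mimic (limma adjusted p = 0.375) and 0.15 for the inhibitor (adjusted p = 0.66).

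CEMIP encodes a secreted hyaluronan-binding protein that is needed for hyaluronan breakdown in fibroblasts and chondrocytes. In the inhibitor libraries, which chose it, CEMIP had 988, 969 and 1133 normalised counts, against 2768, 2593 and 3426 in the inhibitor control. Every inhibitor library lay below every inhibitor control library, and the means were 1029.9 ± 89.6 and 2929 ± 439 (SD, n = 3 each), a ratio of 0.352. The log2 fold change of -1.50 was the 114th lowest of 16468 genes. In bulk RNA, fewer cells that express a gene and less of its RNA per cell cannot be told apart.

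CEMIP with the mimic was not used to choose the set. It had 1558, 1228 and 1761 normalised counts with the mimic, against 2259.95, 1944 and 2047 in the mimic control. All 3 mimic libraries were below all 3 mimic control libraries, with means of 1516 ± 269 and 2084 ± 161 (SD, n = 3 each). The log2 fold change was -0.47 ± 0.14 (SE, 95% interval -0.77 to -0.18), which did not pass the threshold (limma adjusted p = 0.143). Leaving out 1 library at a time gave adjusted p from 0.0281, without mimic replicate 3 (log2 -0.59), to 0.403. CEMIP was thus lower in value with both the mimic and the inhibitor, each against its own control.

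The 4 groups of CEMIP values stood in the order inhibitor, mimic, mimic control and inhibitor control, from low to high. The controls were apart: the inhibitor control averaged 2929 and the mimic control 2084, a ratio of 1.41, and their libraries did not overlap. The highest inhibitor library (1133) was below the lowest mimic library (1228). Of 5 epithelial markers 3 had a mean of at least 20, and the sum of the 5 was nearly all KRT8 and KRT18. KRT8 ran from 1066 to 2268 and KRT18 from 1169 to 3017 over the libraries, while EPCAM lay between 0 and 4.31. CDH1 ran from 0.71 to 41.1 and CLDN4 from 8.18 to 62.6, with medians of 3.71 and 23.1. The summed epithelial markers ran from 4829 to 5384 with the inhibitor, against 3215 to 3579 in the inhibitor control. With the mimic they ran from 2681 to 3395, against 2262 to 2585 in the mimic control. Summed blood markers, nearly all CD68, ran from 2517 to 4577 with the mimic, against 4578 to 4935 in the mimic control, and from 3019 to 3961 with the inhibitor, against 2826 to 2917 in the inhibitor control. Their part in the CEMIP values was not tested. CEMIP shares 224 exon bases (2.94% of its own) with MESD on the opposite strand, and the sources do not say whether strand was used in counting, so reads from such partners cannot be told apart. MESD ran from 549 to 588 with the inhibitor, against 544 to 592 in the inhibitor control, and from 654 to 685 with the mimic, against 511 to 565 in the mimic control.

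CEMIP2 (TMEM2), a membrane protein related to CEMIP and reported to cleave hyaluronan at the cell surface, had 195, 216 and 240.1 normalised counts with the inhibitor, against 319.9, 280.5 and 318 in the inhibitor control. The groups did not overlap. The log2 fold change was -0.50 ± 0.13 (SE, 95% interval -0.79 to -0.21) and missed the threshold (limma adjusted p = 0.0983). Over the 12 fits that left out 1 library, the adjusted p ran from 0.018 to 0.33. The lowest was without mimic replicate 3, which enters only through the shared estimate of the spread. That fit called 653 of all genes for the inhibitor, against 255 in the main fit. With the mimic CEMIP2 had 351, 363 and 260.3, against 299.9, 303 and 332 in the mimic control. These groups overlapped and the log2 fold change was 0.04 (adjusted p = 0.929).

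**Figure D2:**
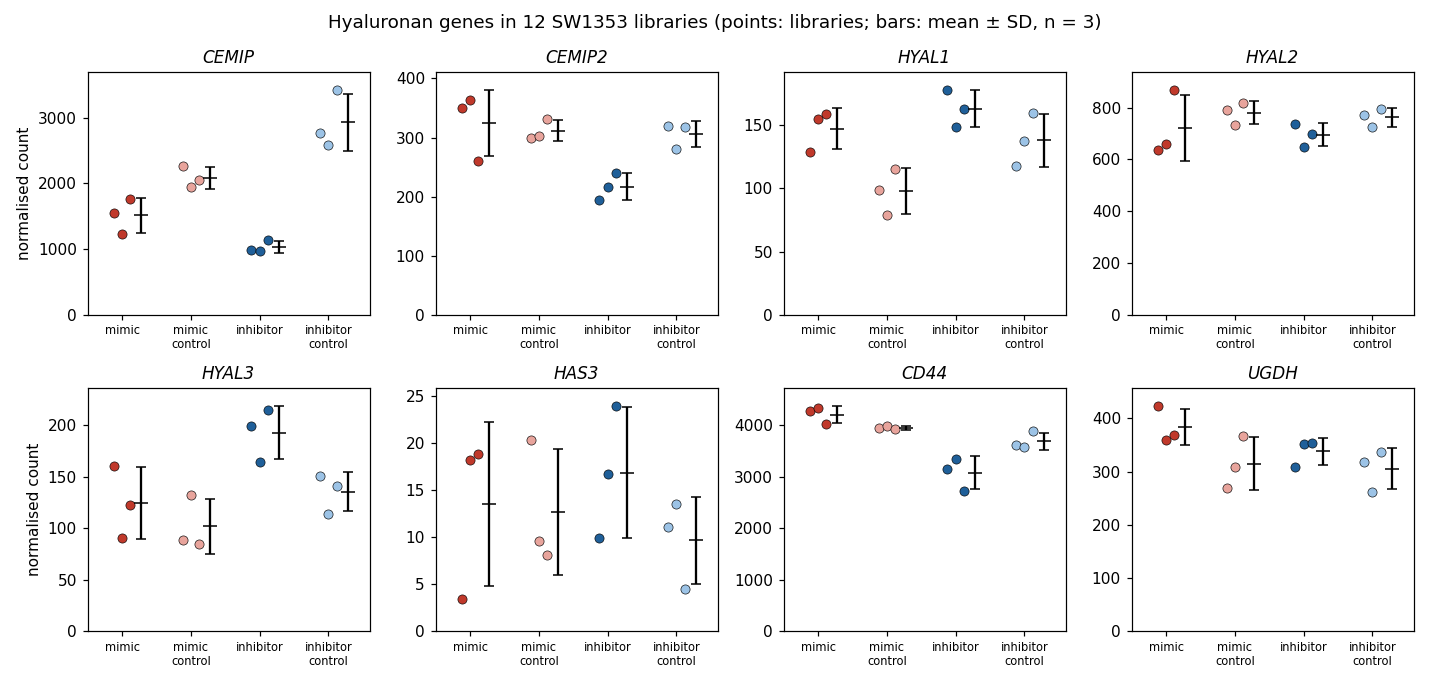
Normalised counts (vertical axis, from 0) of the 8 tested hyaluronan genes in mimic, mimic control, inhibitor and inhibitor control libraries (horizontal axis); points are libraries and bars the mean ± SD (n = 3). CEMIP lies at 969 to 1133 with the inhibitor, against 2593 to 3426 in the inhibitor control.

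HYAL1, a lysosomal hyaluronidase, had 129, 155 and 159 normalised counts with the mimic, against 99.1, 79.0 and 115 in the mimic control. Every mimic library was above every mimic control library, and the log2 fold change was 0.60 ± 0.17 (SE, 95% interval 0.24 to 0.96), which missed the threshold (limma adjusted p = 0.131). With the inhibitor it had 178, 148 and 163, against 117, 138 and 159 in the inhibitor control. These overlapped (log2 0.25, adjusted p = 0.542). All inhibitor control libraries lay above all mimic control libraries for HYAL1, at a log2 fold change of 0.50 (adjusted p = 0.0703).

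HYAL2, a hyaluronidase anchored at the cell surface, had 637, 661 and 868 with the mimic, against 791, 733 and 817 in the mimic control. It had 737, 648 and 699 with the inhibitor, against 769, 724 and 796 in the inhibitor control. The groups overlapped in both comparisons, with log2 fold changes of -0.12 (limma adjusted p = 0.703) and -0.14 (95% interval -0.38 to 0.11, adjusted p = 0.63). HYAL2 shares 11.2% of its exon bases with TUSC2 on the same strand, so reads of the 2 genes may have been divided between them. TUSC2 ran from 364 to 393 with the inhibitor, against 285 to 343 in the inhibitor control, without overlap (log2 0.26, adjusted p = 0.357), and from 237 to 308 with the mimic, against 279 to 342 in the mimic control. Its part in the HYAL2 values was not tested.

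HYAL3, a hyaluronidase family member whose own activity is uncertain, had 199.7, 165 and 215 with the inhibitor, against 151, 114 and 141 in the inhibitor control. The groups did not overlap, and the log2 fold change was 0.51 ± 0.22 (SE, 95% interval 0.02 to 0.99, limma adjusted p = 0.32). With the mimic it had 161, 90.8 and 123, against 88.9, 132 and 84.2 in the mimic control, which overlapped (log2 0.28, adjusted p = 0.649). HYAL3 lies among other genes of chromosome 3 and shares 12.2% of its exon bases with NAA80. NAA80 ran from 205 to 218 with the inhibitor, against 163 to 199 in the inhibitor control, so its groups did not overlap either (log2 0.22, adjusted p = 0.557). With the mimic NAA80 ran from 93.5 to 141, against 139 to 157 in the mimic control, which overlapped (log2 -0.29, adjusted p = 0.468). IFRD2 shares 2.12% of the HYAL3 exon bases. It ran from 444 to 502 with the inhibitor, against 358 to 504 in the inhibitor control, and from 330 to 504 with the mimic, against 292 to 335 in the mimic control. The part of either gene in the HYAL3 values was not tested.

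CD44, the receptor, was the most abundant of the set. It had 3158, 3353 and 2722 normalised counts with the inhibitor, against 3623, 3574 and 3882 in the inhibitor control. All 3 inhibitor libraries lay below all 3 inhibitor control libraries. The difference was small, at a log2 fold change of -0.27 ± 0.080 (SE, 95% interval -0.44 to -0.094), and missed the threshold (limma adjusted p = 0.138). With the mimic it had 4278, 4331 and 4023, against 3949.7, 3990.2 and 3923 in the mimic control. These groups did not overlap either, with values slightly higher in the mimic (log2 0.09, 95% interval -0.08 to 0.26, adjusted p = 0.695), and the sign turned with quantile scaling (-0.0072).

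For the mimic, 0 of the 8 tested genes passed an adjusted p of 0.05 by limma, against 0.759% of all genes tested. At an unadjusted p under 0.05 there were 3 (CEMIP, HYAL1 and UGDH), against 13.2% of all genes. Groups did not overlap for 3 of 8 (CEMIP, HYAL1 and CD44), against 16.4% of all genes, and the median log2 fold change was 0.07, against 0.01 over all genes. For the inhibitor, 0 of the 7 genes other than CEMIP passed, against 1.55% of all genes, and 3 had an unadjusted p under 0.05 (CEMIP2, CD44 and HYAL3), against 14.5%. Groups did not overlap for those 3 genes, against 25.2% of all genes. The median of the 7 was 0.15, against 0.03 over all genes.

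**Figure D3:**
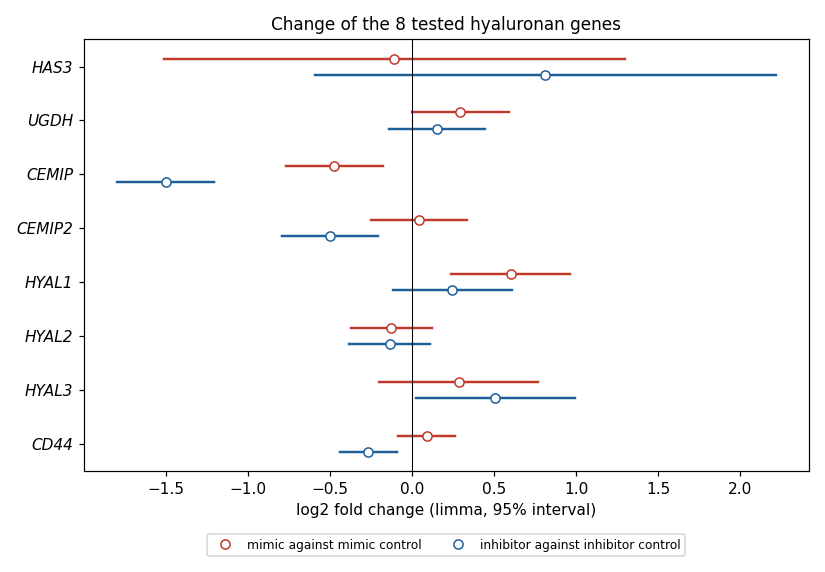
Log2 fold change with its 95% interval (horizontal axis) of the 8 tested hyaluronan genes, one per line, for mimic against mimic control (red, upper) and inhibitor against inhibitor control (blue, lower). CEMIP lies at -1.50 for the inhibitor, a value for which it was chosen, and HAS3 has the widest intervals. Open points mark genes not called, except CEMIP with the inhibitor, which is open because it was given no test. Its interval there is a description.

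Whether the mimic and inhibitor changes differed was tested as the mimic effect minus the inhibitor effect. Of the 7 genes other than CEMIP, 0 passed by limma, against 0.85% of all genes, and 2 had an unadjusted p under 0.05, against 12.8%. These were CEMIP2, at 0.54 (adjusted p = 0.243), and CD44, at 0.36 (adjusted p = 0.192). For CEMIP the difference was 1.03 on the log2 scale, given with no test because the inhibitor libraries chose it.

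The inhibitor control was set against the mimic control to see how far apart the 2 controls were. These libraries are the same as those in the other comparisons. Of the 7 genes other than CEMIP, 0 passed by limma, against 10.1% of all genes, and 1 had an unadjusted p under 0.05, against 29.2%. That gene was HYAL1, with 117, 138 and 159 normalised counts in the inhibitor control, against 99.1, 79.0 and 115 in the mimic control. The log2 fold change of HYAL1 was 0.50 (adjusted p = 0.0703). Groups did not overlap for 2 of the 7, HYAL1 and CD44, against 41.2% of all genes. CD44 ran from 3574 to 3882 in the inhibitor control, against 3923 to 3990 in the mimic control (log2 -0.10, adjusted p = 0.435).

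Enzymes and a transporter that make, use or carry UDP-sugars or their precursors were described as a UDP-sugar supply list of 13 genes, all tested. With the inhibitor, 1 fell and 0 rose by limma, against 0.783% and 0.765% of all genes, and 4 had an unadjusted p under 0.05, against 14.5%. The gene that fell was HK2, a hexokinase, which phosphorylates glucose at the entry to glycolysis and to the UDP-sugar routes. HK2 had 676, 731 and 707 normalised counts with the inhibitor, against 1099.95, 1135 and 1185 in the inhibitor control. The groups were far apart, and the log2 fold change was -0.69 ± 0.10 (SE, adjusted p = 0.0064). With the mimic HK2 had 1588, 1469 and 1915, against 1691, 1388 and 1525 in the mimic control, which overlapped (log2 0.11, adjusted p = 0.727). The difference between the mimic and inhibitor changes was 0.80 ± 0.15 (adjusted p = 0.0295), and it missed the threshold in 7 of the fits that left out 1 library, with adjusted p over all 12 such fits between 0.0133 and 0.0992. The control groups differed too, at -0.42 for the inhibitor control against the mimic control (adjusted p = 0.0268).

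With the mimic, 0 of the 13 genes of this list passed by limma, against 0.759% of all genes, and 5 had an unadjusted p under 0.05, against 13.2%. The median log2 fold change of the 13 was 0.19, against 0.01 over all genes. With the inhibitor the median was 0.08, against 0.03. UAP1 and SLC35D1 were not picked by the naming rule and were named after their values were seen. UAP1, which makes UDP-N-acetylglucosamine, had a log2 fold change of 0.35 with the mimic (adjusted p = 0.27) and 0.44 with the inhibitor (adjusted p = 0.142). SLC35D1, a nucleotide sugar transporter of the endoplasmic reticulum, had 503, 432 and 416 normalised counts with the mimic, against 619, 573 and 673 in the mimic control. Its groups did not overlap and its log2 fold change of -0.47 missed the threshold (adjusted p = 0.0771). The inhibitor control was lower than the mimic control for SLC35D1, at -0.66 (adjusted p = 0.00579).

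**Figure D4:**
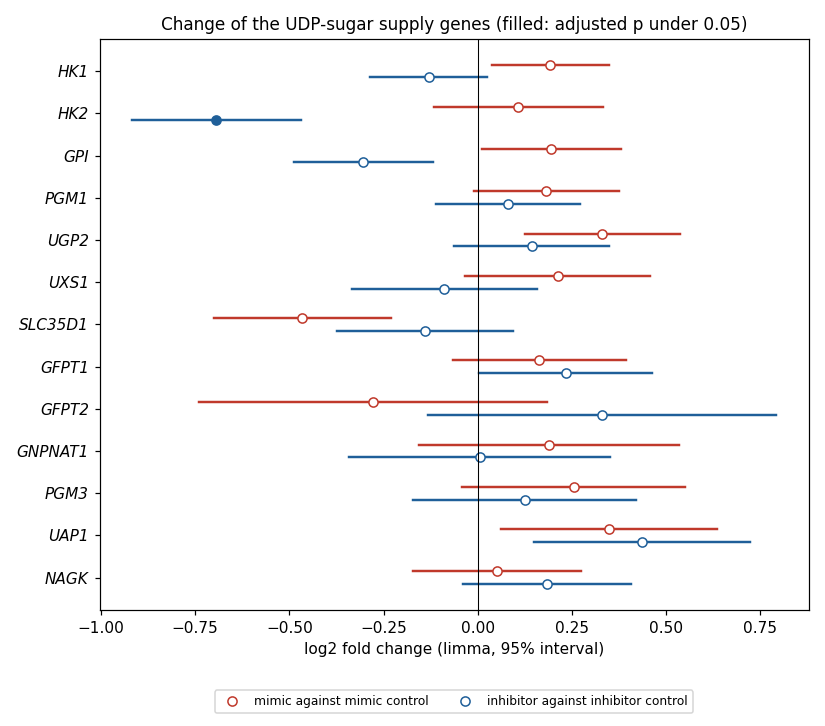
Log2 fold change with its 95% interval (horizontal axis) of the 13 genes of the UDP-sugar supply list, one per line, for mimic against mimic control (red, upper) and inhibitor against inhibitor control (blue, lower). The filled point, an adjusted p under 0.05, is HK2 with the inhibitor at -0.69.

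Among partners, sheddases and splicing factors of CD44, 5 of 7 genes were tested. With the inhibitor, 1 rose and 0 fell by limma, against 0.765% and 0.783% of all genes, and 3 had an unadjusted p under 0.05, against 14.5%. EZR, which encodes ezrin, a linker between CD44 and actin, had 6619.9, 6766 and 7471 normalised counts with the inhibitor, against 4295, 4565 and 5374 in the inhibitor control. The groups did not overlap, and the log2 fold change was 0.56 ± 0.093 (SE, adjusted p = 0.0103). The call was lost without inhibitor control replicate 1 (adjusted p = 0.0598) or 2 (0.0577) or without inhibitor replicate 3 (0.0585). The summed epithelial markers given above, nearly all KRT8 and KRT18, were also higher with the inhibitor, and their part in the EZR values was not tested. The control groups also differed for EZR, at 0.35 for the inhibitor control against the mimic control (adjusted p = 0.0333). With the mimic, 0 of the 5 passed, against 0.759% of all genes, and 1 had an unadjusted p under 0.05, against 13.2%. That gene was EZR (log2 0.34, adjusted p = 0.126). MMP14, a membrane protease that can cleave CD44, was named after its values were seen, with a log2 fold change of -0.35 with the inhibitor (adjusted p = 0.0536), so it lay near the threshold. It passed without mimic replicate 1 (0.0419) or 3 (0.00859) and in 5 of the 11 settings that kept every replicate (adjusted p 0.00512 to 0.0472).

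Of 16 hyaluronan-binding matrix proteins 11 were tested, and 0 passed with the mimic or with the inhibitor by limma, against 0.759% and 1.55% of all genes. In each comparison 1 had an unadjusted p under 0.05, against 13.2% of all genes for the mimic and 14.5% for the inhibitor. The medians were 0.04 in both, against 0.01 and 0.03 over all genes. PTX3, a pentraxin that joins the hyaluronan matrix, had 378, 212 and 301 normalised counts with the mimic, against 201, 189.6 and 170.4 in the mimic control. The groups did not overlap (log2 0.63, adjusted p = 0.12). Leaving out 1 library at a time gave 0.44 to 0.85 (adjusted p 0.0162 to 0.301), with 0.85 and 0.0162 without mimic replicate 2. Between the controls PTX3 differed by more, at 1.06 for the inhibitor control against the mimic control (adjusted p = 0.00539). HAPLN4, a link protein, was low, at 7.63, 5.01 and 3.90 with the inhibitor, against 10.8, 22.5 and 15.3 in the inhibitor control (log2 -1.46 ± 0.60, adjusted p = 0.285). Its control groups differed as well, at 2.41 for the inhibitor control against the mimic control (adjusted p = 0.0283).

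Of 7 other hyaluronan receptors 3 were tested, and 0 passed with the mimic or the inhibitor by limma, against 0.759% and 1.55% of all genes. In each comparison 1 had an unadjusted p under 0.05, against 13.2% of all genes for the mimic and 14.5% for the inhibitor. That gene was LAYN, which encodes layilin, a membrane receptor for hyaluronan. LAYN had 80.3, 77.6 and 67.8 normalised counts with the mimic, against 39.9, 36.6 and 55.5 in the mimic control, and 68.7, 65.0 and 73.5 with the inhibitor, against 47.8, 41.2 and 34.4 in the inhibitor control. Its values were higher than the matching control in both, without overlap, at 0.79 (adjusted p = 0.0963) and 0.75 (adjusted p = 0.0817) on the log2 scale. Leaving out 1 library at a time gave adjusted p from 0.0447 to 0.311 with the mimic. The lowest was without mimic replicate 3 (log2 0.86), where 797 of all genes were called, against 125 in the main fit. HMMR, an intracellular and surface hyaluronan-binding protein that is high in dividing cells, had log2 fold changes of 0.34 (adjusted p = 0.604) and 0.11 (adjusted p = 0.886).

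Of 5 other breakdown enzymes 3 were tested, and 0 passed with the mimic or the inhibitor by limma, against 0.759% and 1.55% of all genes, and 0 had an unadjusted p under 0.05, against 13.2% and 14.5%. HEXA, a lysosomal hexosaminidase subunit, had a log2 fold change of -0.11 with the inhibitor (adjusted p = 0.45).

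The genes whose values ran most like CEMIP over the 12 libraries were found by Pearson correlation of log2 values, which is a description since the libraries share 4 groups and include the inhibitor and inhibitor control values that chose CEMIP. BGN (biglycan, a small leucine-rich proteoglycan) had r = 0.925, CENPBD2P 0.920, COLEC12 (a scavenger receptor with a collagen-like stalk) 0.891 and GHR (the growth hormone receptor) 0.878. GHR reached the minimum group mean of 20 only in the inhibitor control, where CEMIP was also highest, with means of 4.07 with the mimic, 11.4 in the mimic control, 4.42 with the inhibitor and 38.6 in the inhibitor control. The fifth place, at 0.864, was shared by 3 Ensembl genes with identical values and no symbol. Mean COLEC12 was 519 with the inhibitor, against 1079 in the inhibitor control, and 807 with the mimic, against 809 in the mimic control. Within the hyaluronan set, CEMIP2 and HYAL2 (both 0.57) and CD44 (0.41) had positive r with CEMIP. HYAL1 (-0.41), HYAL3 (-0.42), UGDH (-0.36) and HAS3 (-0.36) had negative r.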

How the data were processed

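The authors checked reads with FastQC, trimmed them with Trim Galore and quantified them on hg38 with kallisto and sleuth. The sources used here did not give versions, annotation release or strand setting. The authors deposited a signal for every Ensembl gene, made from estimated counts scaled between libraries, in which kallisto divides reads between transcripts that share sequence. Among genes with 1 transcript, 65.0% to 71.9% of values per library came within 0.02 of a whole read (the value of 1 read was estimated for each library), so no count test was run.

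Genes reaching 5 in 47% or more of the 12 libraries were analysed as log2(value + 0.5). One model holding the 4 group means was fitted with limma 3.58.1 (R 4.3.3, eBayes with an intensity trend), two-sided, with Benjamini-Hochberg adjustment over 16468 genes and a threshold of 0.05. All libraries are of 1 cell line and may or may not be separate transfections (not stated), so p-values reflect only the spread between these samples, which may be technical. Depth limits the synthases, where 1 read was worth 0.9015 to 1.0995 normalised counts. The fit was also run on simulated libraries in which genes were changed only in the inhibitor group. The control groups were alike there, unlike in these data, so nothing is read from it here.

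Symbols were matched for 35521 of 40490 genes. The 3′ UTRs and positions are from GENCODE (GRCh38) and the mature microRNA from RefSeq (GRCh38.p14), searched with Python 3.11.15. The rule named all 10 genes, each list gene past the threshold or otherwise the 2 with the smallest p, and the 5 genes most like CEMIP with a group mean of at least 20. The members and lists were chosen with earlier results of these data known. The antisense genes HAS2-AS1 and UGDH-AS1 were not analysed here, and 1 list gene picked by this rule is not reported here. Alternatives covered the filter, pseudocount, scaling, weights, trend, libraries fitted, replicate block and each library left out.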

Additional observations from a re-analysis of the deposited data

Results flagged for a closer look

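HK2, the hexokinase of the UDP-sugar supply list, was picked out because its change with the mimic and its change with the inhibitor differed by a test of the difference itself, at 0.80 on the log2 scale (limma adjusted p = 0.0295). The change was 0.11 with the mimic and -0.69 with the inhibitor. The difference missed the threshold in 10 of 22 other settings.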

How the results depend on the processing

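Across 23 alternative settings, 1143 of 1204 gene values were counted as unchanged, which meant keeping their direction and their side of the threshold. CEMIP had no test outside the mimic comparison. There it counted as unchanged where its direction held and it moved by less than its SD within groups. No hyaluronan gene other than CEMIP was called in any comparison except with array weights, whose iteration stopped before its tolerance, or without mimic replicate 3. With array weights the called genes of the set numbered 1 for the mimic (CEMIP, log2 -0.66, adjusted p = 0.0127), 2 for the inhibitor and 2 for the difference of the 2 changes (CEMIP2 and CD44 in each), and 1 between the controls (HYAL1). Over all 16468 genes, array weights called 529 for the mimic, 1260 for the inhibitor, 624 for the difference and 4623 between the controls. The main fit called 125, 255, 140 and 1667. With 1 library left out, the count ran from 0 to 1 in each of the 4 comparisons, the 1 being found without mimic replicate 3, and the CEMIP change with the mimic ran from -0.59 to -0.33 (adjusted p 0.0281 to 0.403). The CEMIP change with the inhibitor ran from -1.58 to -1.38. Without mimic replicate 3 the calls over all 16316 genes tested were 797 for the mimic and 653 for the inhibitor. They were 515 for the difference and 3757 between the controls.

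Some directions turned. With array weights these were HAS3 (0.19) and HK2 (-0.0069) with the mimic, and HYAL2 in the difference (-0.11). With quantile scaling they were CD44 with the mimic (-0.0072), HYAL2 in the difference (-0.031) and CEMIP2 between the controls (0.0076). Leaving out 1 library gave, with the mimic, CEMIP2 -0.043 to 0.20, HAS3 -0.50 to 0.65 and HK2 -0.0019 to 0.19. With the inhibitor it gave PTX3 -0.013 to 0.10, HMMR -0.12 to 0.32 and IFRD2 -0.0023 to 0.25, and HYAL2 in the difference ran -0.13 to 0.094. Between the controls it gave CEMIP2 -0.061 to 0.034, HAS3 -0.67 to 0.065, HYAL2 -0.077 to 0.0053 and UGDH -0.15 to 0.079. The causes were not tested.

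HK2 with the inhibitor was called in all 23 settings (adjusted p 0.000351 to 0.043). Its difference was lost with no filter (adjusted p = 0.0539), no trend (0.0815) and the replicate block (0.0502). Over all genes, calls numbered 125 for the mimic (20 to 797 over the settings), 255 for the inhibitor (88 to 1260), 140 for the difference (37 to 624) and 1667 between the controls (271 to 4623). Replicate numbers are not stated to pair libraries. After the mean of each group was taken off each gene, same-numbered libraries of different groups correlated at -0.124 to 0.063. Differently numbered ones correlated at -0.074 to 0.107. With the replicate block the calls were 93, 186, 74 and 1017, and 0 hyaluronan genes other than CEMIP passed in any comparison. The low read counts limit HAS1, HAS2 and HAS3.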

Other observations

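Some listed genes were below the filter and were chosen for mention after their values were seen. ESRP1, an epithelial splicing regulator that acts on CD44, had 11.8, 28.7 and 12.6 normalised counts with the inhibitor, against 2.85, 12.4 and 3.25 in the inhibitor control, which overlapped. It had 1.603, 3.45 and 0 with the mimic, against 4.77, 4.76 and 1.96 in the mimic control. HYAL4, a hyaluronidase family member that acts on chondroitin sulphate, had 14.3, 2.84 and 0 with the mimic, against 0.678, 0 and 0.611 in the mimic control. SPAM1, the sperm hyaluronidase, was listed at 0 in all 12 libraries.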
